A study of Sus scrofa with 42 samples.

Results

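The 9 single blastomeres analysed here came from 3 pig IVF 4-cell embryos and were divided by their FPKM of the gene CDV3. Blastomeres with at least 1000 FPKM of CDV3 were called CDV3-high (5 cells), and the others CDV3-low (4 cells), out of 42 single cells in the whole series. These cells are named by embryo and cell number, so 3-2 is cell 2 of embryo 3. CDV3 was 8757 FPKM in 2-2, 5079 in 2-3, 8882 in 3-1, 1626 in 3-2 and 6183 in 3-4, against 5.17 in 1-1, 80.5 in 1-2, 509 in 1-4 and 4.41 in 3-3. The cells nearest the threshold were therefore 3-2 on the upper side and 1-4 on the lower side. Embryo 1 held CDV3-low cells only (3 cells), embryo 2 CDV3-high cells only (2 cells), and embryo 3 held both kinds (3 high, 1 low). Since a measured value made the classes and they mostly follow the embryos, differences between them are described without a test, and CDV3 itself is not counted among them.

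The series holds single cells of pig embryos produced by in vitro fertilization (IVF), with fresh semen, or by parthenogenetic activation (PA), in which electric pulses start development of an oocyte without sperm. Oocytes came from slaughterhouse gilts and were matured in vitro, and the embryos were dissociated into blastomeres by trypsin after removal of the zona pellucida. Besides the 9 IVF 4-cell blastomeres, the results below use 6 IVF 2-cell blastomeres of 3 embryos, 3 IVF 8-cell blastomeres of 1 embryo, and PA 2-cell (6 cells, 3 embryos) and PA 4-cell blastomeres (9 cells, 3 embryos), while the 1-cell groups of both methods and PA 8-cell cells enter only the estimate of the spread. Not every blastomere of each embryo was measured, the parents of the embryos are not named, and the amount of RNA per cell was not measured, so each value is relative to the other transcripts of the same cell.

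In the maternal-to-zygotic transition (MZT), an embryo degrades RNA stored in the oocyte and starts transcription from its own genome, which is called zygotic genome activation (ZGA). In pigs, the main wave of ZGA is placed around the 4-cell stage. Among the transcripts known to appear with it are those of transcription factors, RNA processing, nucleolus and ribosome, while oocyte transcripts such as BTG4, an adaptor of the deadenylase that removes polyA tails, are known to disappear.

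Of 3795 genes with an FPKM of at least 1 in at least 3 of the 9 cells (CDV3 left out), 138 (3.64%) were higher and 172 (4.53%) were lower in CDV3-high blastomeres. A gene was counted when the values of the classes did not overlap and the means of log2(FPKM + 1) differed by at least 2, that is 4-fold. The pseudocount of 1 understates the difference of genes near 0. The median difference was 3.97 for the higher and -3.44 for the lower genes, against -0.36 for all 3795 genes. Of the higher genes, 84 were below 1 FPKM in every CDV3-low cell, and 85 of the lower genes were below 1 FPKM in every CDV3-high cell. Thus, in many of these genes, 1 class of cells had almost no signal.

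The genes with the largest differences are drawn cell by cell in the plot of single genes. SRSF11 (ENSSSCG00000003791, chromosome 6, 142623110 to 142651683, Sscrofa11.1), a serine/arginine-rich splicing factor, was 342, 146, 280, 42.2 and 236 FPKM in CDV3-high cells 2-2, 2-3, 3-1, 3-2 and 3-4. In CDV3-low cells 1-1, 1-2, 1-4 and 3-3 it was 0.0482, 0.487, 0.104 and 0.0795 FPKM. The difference in mean log2 was 7.19, with a standard deviation (SD) of 1.20 among the 5 high and 0.23 among the 4 low cells. TPT1 (chromosome 11, 21929221 to 21933199), encoding translationally controlled tumour protein, was 288, 198, 227, 102 and 118 FPKM in the same order of CDV3-high cells. It was 0.632, 0.233, 0.184 and 0.400 FPKM in the CDV3-low cells. The lowest high cell, 3-2, was thus far above the highest low cell, 1-1, and the difference was 7.01 on the log2 scale (SD 0.63 and 0.21). RACK1 (chromosome 2, 57279857 to 57284849), a scaffold protein of the small ribosomal subunit, was 155, 93.3, 325, 267 and 49.8 FPKM against 0.206, 0.281, 0.271 and 0.254 FPKM. The CDV3-low cells were nearly alike for RACK1 (SD 0.04 on the log2 scale), and the difference was 6.86.

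**Figure D1:**
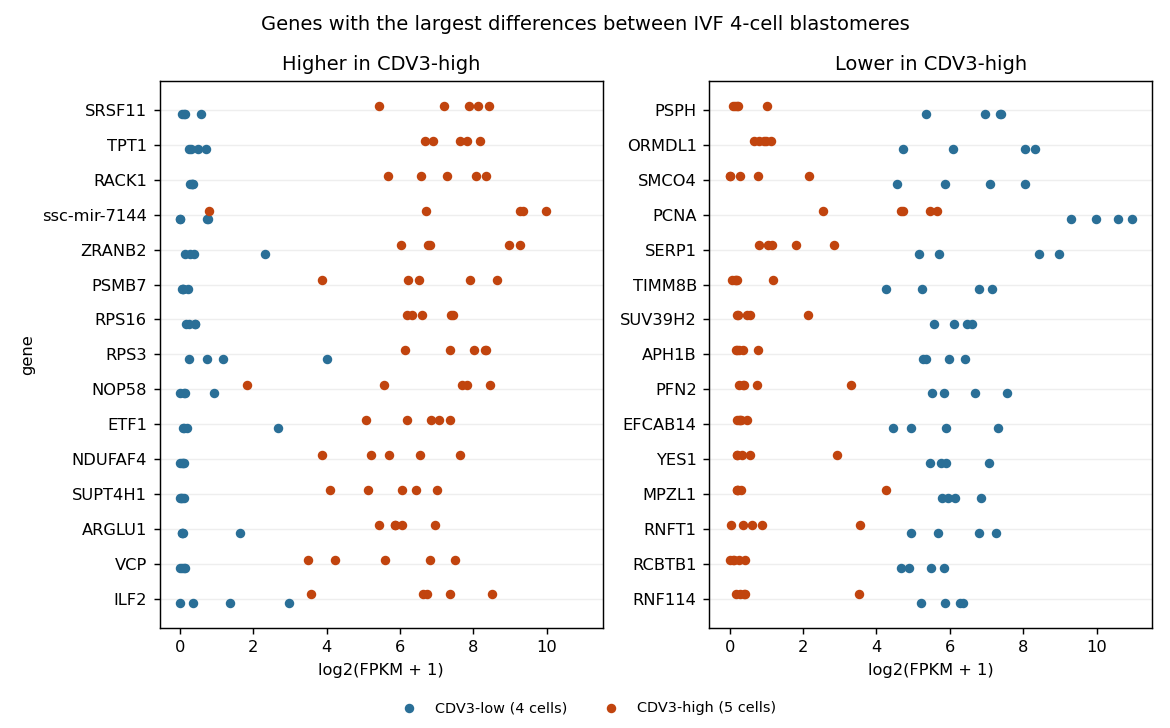
Values of log2(FPKM + 1) in each IVF 4-cell blastomere for the 15 named genes with the largest positive (left) and the 15 with the largest negative difference (right), with 1 point per cell, red for the 5 CDV3-high and blue for the 4 CDV3-low cells. Genes were chosen for groups that do not overlap, so the separation is given by the choice; SRSF11, TPT1 and RACK1 head the left and PSPH and ORMDL1 the right panel.

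TPT1, ETF1 and SUPT4H1 are also shown by sequence, with SERP1 from the lower genes beside them, because the letters CCGGAAG before their starts, the core of sites bound by ETS family factors, were found in a larger share of the windows of higher than of lower genes. Capitals mark these letters, on the gene's strand as CCGGAAG or, where they lie on the other strand, as CTTCCGG.
TPT1 (chr11:21929183-21929219, plus strand): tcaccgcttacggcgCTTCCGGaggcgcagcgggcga
SUPT4H1 (chr12:34629662-34629698, minus strand): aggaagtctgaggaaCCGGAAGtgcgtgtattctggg
ETF1 (chr2:140504534-140504570, minus strand): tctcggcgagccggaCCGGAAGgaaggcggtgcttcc
SERP1 (chr13:90761503-90761539, minus strand): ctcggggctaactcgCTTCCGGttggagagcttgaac
These were read 5′ to 3′ from the RefSeq genome of build Sscrofa11.1, 1-based, and lie before the gene start given in the table. In windows of 250 bases before to 50 bases after the start of protein-coding genes, the letters occurred on either strand in 32 of 136 higher genes (23.5%), 17 of 172 lower genes (9.88%) and 585 of all 3760 genes (15.6%). Where the table and RefSeq place the start within 100 bases of each other, the shares were 31.9% of 72, 10.1% of 69 and 22.3% of 1653 windows. CCGGAAG was picked from 11 strings after their counts had been seen. CCAAT, bound by the factor of which NFYA is a subunit, was in 41.2%, 39.0% and 37.5% of higher, lower and all windows. CACGTG, the E-box bound by MYC, was in 9.56%, 8.14% and 9.47%, and CCACCC, a core of KLF sites, in 31.6%, 37.8% and 32.7%, respectively. The strings were counted independently, so a base could count for more than 1 of them, and a match describes letters and not binding.

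The other named genes with large positive differences follow. ZRANB2, a zinc finger protein of the spliceosome, lay between 63.9 and 610 FPKM in CDV3-high and between 0.0980 and 3.99 FPKM in CDV3-low cells. NOP58, a core protein of box C/D snoRNPs, was 206, 2.55, 350, 45.8 and 225 FPKM in 2-2, 2-3, 3-1, 3-2 and 3-4, against at most 0.912 FPKM in the low cells. For NOP58, cell 2-3 thus stood far below the other CDV3-high cells. PSMB7, a subunit of the proteasome, reached 13.6 to 399 FPKM in CDV3-high cells and at most 0.158 FPKM in CDV3-low cells. ETF1, the factor that recognises stop codons, ranged from 32.4 to 162 FPKM and from 0.0582 to 5.4 FPKM in the high and low cells, respectively. NDUFAF4, an assembly factor of respiratory complex I, ranged from 13.6 to 197 FPKM in CDV3-high cells and reached 0.0867 FPKM in CDV3-low cells. SUPT4H1, a subunit of the elongation factor DSIF, was 129, 33.6, 84.9, 65.4 and 15.9 FPKM in CDV3-high cells and at most 0.0838 FPKM in the others. ARGLU1, an arginine and glutamate rich nuclear protein linked to splicing, lay between 42.1 and 123 FPKM against 0.0398 to 2.10 FPKM. VCP, an ATPase that extracts ubiquitinated proteins, was 10.3 to 181 FPKM against at most 0.0969 FPKM, and ILF2, a double-stranded RNA binding factor, 11 to 361 FPKM against 0 to 6.82 FPKM. The microRNA gene ssc-mir-7144 lies inside ARGLU1 on the opposite strand, and 3-4 (0.730 FPKM) was barely above the CDV3-low cells (0.689 FPKM at most).

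Several of these genes overlap other annotated genes, and the strandedness of counting was not given in the sources used here. TPT1, RACK1, ZRANB2 and NOP58 contain small RNA genes on the same strand, and ETF1, VCP, ILF2, PSPH, ORMDL1, PCNA, TIMM8B and PFN2 overlap a gene on the opposite strand. In all, 57 of the 138 higher and 62 of the 172 lower genes overlap another gene, and reads of such pairs could not be told apart here. The largest difference among all genes, 7.94 on the log2 scale, belonged to a protein-coding gene with an identifier only, ENSSSCG00000034113 (chromosome 9, 25500470 to 25503075, minus strand). It was 5885, 1866, 9491, 1079 and 4969 FPKM in 2-2, 2-3, 3-1, 3-2 and 3-4, and 0.397, 20.5, 470 and 2.04 FPKM in 1-1, 1-2, 1-4 and 3-3. Like CDV3, it was lowest in 3-2 among the CDV3-high cells and highest in 1-4 among the CDV3-low cells.

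Among the genes lower in CDV3-high blastomeres, PSPH (chromosome 3, 16877780 to 16903058), the last enzyme of serine synthesis, was 164, 123, 166 and 40.1 FPKM in CDV3-low cells 1-1, 1-2, 1-4 and 3-3. It was 1.01, 0.114, 0.0645, 0.172 and 0.156 FPKM in CDV3-high cells, a difference of -6.43 on the log2 scale (SD 0.96 in the low and 0.38 in the high cells). ORMDL1, a regulator of sphingolipid synthesis, was 25.6, 265, 66.9 and 315 FPKM in the CDV3-low cells and at most 1.19 FPKM in the CDV3-high cells, with a difference of -5.89. PCNA (chromosome 17, 14136886 to 14185276), the sliding clamp of DNA polymerases, was 2001, 1005, 625 and 1513 FPKM in 1-1, 1-2, 1-4 and 3-3 and 49.6, 43.3, 25.3, 24.3 and 4.78 FPKM in the CDV3-high cells. Unlike PSPH, PCNA kept a signal in every CDV3-high cell, and its difference was -5.59 (SD 0.73 and 1.24). SUV39H2, a histone H3 lysine 9 methyltransferase, was 46.8 to 95.5 FPKM against 0.158 to 3.36 FPKM. YES1, a Src family kinase, and RNF114, a ubiquitin ligase, were at least 43.1 and 35.8 FPKM in the low cells, and their highest CDV3-high cell was 3-2 with 6.57 and 10.5 FPKM, respectively. The other named genes, SMCO4, SERP1, TIMM8B, APH1B, PFN2, EFCAB14, MPZL1, RNFT1 and RCBTB1, had differences between -5.74 and -5.04.

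Summed over the genes, the 138 higher genes made up 4.42 to 9.70% of all FPKM in CDV3-high cells and 0.109 to 0.477% in CDV3-low cells. The 172 lower genes made up 5.50 to 7.93% in CDV3-low and 0.209 to 1.09% in CDV3-high cells. The medians in other IVF groups and in PA 4-cell blastomeres, which were not used to choose the genes, are given next. In the 6 IVF 2-cell blastomeres, the median of the higher genes was 0.0914 to 0.406 FPKM and that of the lower genes 16.8 to 23.9 FPKM. In the 3 IVF 8-cell blastomeres, the medians were 11.9 to 21.6 and 0.0669 to 0.0899 FPKM, respectively. So IVF 2-cell blastomeres lay on the side of the CDV3-low and IVF 8-cell blastomeres on the side of the CDV3-high cells for both groups of genes. The 7 PA 4-cell blastomeres that did not repeat a 2-cell column held neither side so clearly for the higher genes, with medians of 0.139 to 2.54 FPKM. For the lower genes, their medians were 0.0810 to 0.178 FPKM, except 1.77 FPKM in 2-3. These lay nearer to the CDV3-high cells (0.0718 to 0.162 FPKM) than to the CDV3-low cells (21.8 to 28.7 FPKM). Among them, 1-3 and 3-3 had CDV3 of 3753 and 6430 FPKM but medians of the higher genes of only 0.139 and 0.157 FPKM, and 3-4, with CDV3 of 6.29 FPKM, had a median of the lower genes of only 0.154 FPKM.

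Whole transcriptomes showed the same order, described by Spearman's rho of a cell with the mean of IVF 2-cell or of IVF 8-cell blastomeres over nuclear genes, leaving the cell itself and CDV3 out. The cells share the library method but not the depth (5817726 reads on genes in 1-1 and 14832047 in 3-3), and no test is given. Likeness to the 2-cell stage was 0.402, 0.456, 0.395, 0.518 and 0.442 in 2-2, 2-3, 3-1, 3-2 and 3-4, and 0.565, 0.720, 0.590 and 0.688 in 1-1, 1-2, 1-4 and 3-3. Likeness to the 8-cell stage was 0.553, 0.456, 0.509, 0.411 and 0.509 in the CDV3-high and 0.315, 0.309, 0.351 and 0.304 in the CDV3-low cells. The classes did not overlap in either measure, and 3-2 and 1-4, the cells nearest the CDV3 threshold, were also the nearest to the other class in likeness to the 8-cell stage. Pairs of blastomeres correlated with a median Pearson's r of 0.419 when both were CDV3-high (10 pairs), 0.533 when both were CDV3-low (6 pairs) and 0.330 for 1 of each (20 pairs). The CDV3-high cells were therefore less like each other than the CDV3-low cells were. Cell 3-2 went against its class, with r of 0.465, 0.458 and 0.444 with 1-2, 1-4 and 3-3, and 0.394 with 1-1. With the other CDV3-high cells its r was 0.413 to 0.433. The highest r of a mixed pair (0.465) was thus above the highest r of 2 CDV3-high cells (0.458).

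**Figure D2:**
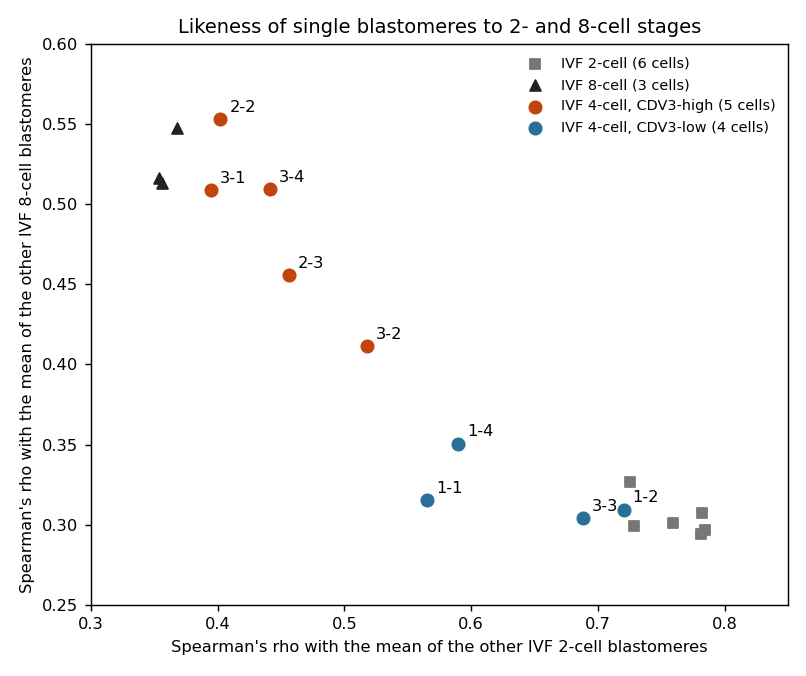
Spearman's rho of each cell with the mean of the other IVF 2-cell (x axis) and of the other IVF 8-cell blastomeres (y axis), with 1 point per cell and no units. From left to right lie the 8-cell blastomeres (triangles), the CDV3-high cells (red, 0.395 to 0.518), the CDV3-low cells (blue, 0.565 to 0.720) and the 2-cell blastomeres (squares, 0.725 to 0.784).

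The number of reads on genes, recovered from the steps of the FPKM, was 10150874, 11291162, 9073257, 9497611 and 12102566 in CDV3-high cells 2-2, 2-3, 3-1, 3-2 and 3-4. In the CDV3-low cells it was 5817726, 12104509, 12048112 and 14832047 in 1-1, 1-2, 1-4 and 3-3, so 1-1 was the shallowest. Genes with an FPKM above 0 numbered 6065 to 6859 in CDV3-high cells and 4367 to 7071 in CDV3-low cells, with the lowest in 1-1. With all reads on genes of each cell, mitochondrial ones included, thinned to the total of 1-1, the numbers were 5223 to 6274 and 4361 to 6476, which overlap, although reads on nuclear genes were not made equal. Mitochondrial mRNAs took 24.6 to 36.2% of all FPKM in CDV3-high and 28.8 to 41.8% in CDV3-low cells, which overlap. The part of depth in the differences was not tested. With the shallow 1-1 and the intermediate 3-2 left out together, a setting chosen after seeing the data, 189 genes were higher and 444 lower, of which 125 and 148 were among the 138 and 172. Leaving out 1-1 alone gave 305 and 3-2 alone 260 lower genes, and leaving out 1-4 alone 211 higher genes. Where 1-4 was counted as CDV3-high (a threshold of 500 FPKM), 125 genes were higher and 134 lower, but only 51 and 50 of them were among those named above. With 3-2 counted as CDV3-low (a threshold of 2000 FPKM) 40 of 96 and 49 of 141 were shared. The list of genes therefore depends on where these 2 cells are placed.

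Genes of the Y chromosome summed to 0.0639, 100.6, 79.8, 2.26 and 19.3 FPKM in 2-2, 2-3, 3-1, 3-2 and 3-4, and to at most 0.792 FPKM in the CDV3-low cells. None of the 138 higher genes lies on the Y chromosome. The classes overlapped, since the CDV3-high cell 2-2 had the lowest sum of all 9 cells. By embryo, the sum was at most 0.792 FPKM in embryo 1 but reached 100.6 FPKM in embryo 2 and 79.8 FPKM in embryo 3. From such sums, the paper scored 1 IVF 4-cell embryo female and the others male. It scored the IVF 2-cell embryos female and the IVF 8-cell embryo male. Scored sex thus cannot be told apart from class between embryos 1 and 2, or from stage between IVF 2-cell and 8-cell embryos. The leading Y gene differed from cell to cell (1 without a symbol took 94.1 FPKM of the sum of 2-3), and the part of these signals in the differences was not tested. Cumulus cell markers, of which 2 of 9 in the table passed the filter, summed to between 1.02 and 30.6 FPKM, with VCAN the highest (mean 5.89 FPKM). Sperm markers, of which none of 5 passed, summed to at most 1.84 FPKM. Neither list separated the classes.

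Pluripotency and zygotic transcription factors were counted in CDV3-high blastomeres as higher or not at all. Of 19 factors that passed the filter, 7 were higher and 0 lower, where 3.64% of all genes were higher, with a median difference of 2.09 against -0.36 for all genes. Where at least 1 FPKM was required in every CDV3-high cell, 4 were higher, and 2.45% of all genes. The lists of genes were chosen with earlier results of these data known, so the counts describe them and test nothing. KLF4 (chromosome 1, 248604822 to 248609718), a zinc finger factor of pluripotent cells, was 391, 21.2, 262, 7.52 and 226 FPKM in 2-2, 2-3, 3-1, 3-2 and 3-4, and 5.78, 1.52, 0.659 and 0.137 FPKM in 1-1, 1-2, 1-4 and 3-3. Cell 3-2 was thus just above 1-1. KLF17 (chromosome 6, 167176834 to 167188418), a factor of the same family in early embryos, was 334, 4.91, 128, 0.533 and 216 FPKM in CDV3-high cells and at most 0.152 FPKM in the others. NANOG (chromosome 5, 62932575 to 62939035), a homeobox factor of the inner cell mass, was 114, 176, 9.36, 0.0949 and 224 FPKM in the CDV3-high cells, and 0.0399 FPKM in 1-2 and 0 in the other 3 CDV3-low cells. In 3-2, NANOG and KLF17 were therefore below 1 FPKM although CDV3 passed its threshold. Counted genes of this list besides these were NFYA, MYC, MYCN and NR5A2, and MYC was below 1 FPKM in the CDV3-high cells 2-2 and 3-4 (0.0776 and 0.986 FPKM). SALL4, with 51.6 to 190 FPKM in CDV3-high and 23.7 to 67.9 FPKM in CDV3-low cells, and DPPA2, with 0.290 to 164 and 0.00670 to 16.8 FPKM, overlapped. OTX2, a homeobox factor stored in oocytes, was 0.127 to 128 FPKM in CDV3-high and 3.87 to 51.9 FPKM in CDV3-low cells.

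The blastomeres 2-2, 2-3, 3-1 and 3-4 had signals of NANOG, KLF4 and KLF17. In 1-1, 1-2, 1-4 and 3-3, NANOG and KLF17 were below 1 FPKM and KLF4 was at most 5.78 FPKM. TBX3, a further factor checked, did not follow them, with 29.7, 2.32 and 12.5 FPKM in 2-2, 2-3 and 3-2. It was only 0.0121 and 0.00486 FPKM in 3-1 and 3-4, and at most 0.00917 FPKM in the CDV3-low cells. SALL4 overlapped between the classes. The words activated and delayed therefore rest on part of the markers. They hold less well for 3-2, which lacked NANOG and KLF17 but held TBX3, and for oocyte genes, which did not separate the classes.

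Genes of oocyte and maternal effect gave no gene without overlap. Among 20 that passed, 0 were higher and 0 lower, with a median difference of -1.80. Their summed FPKM was 1399, 3318, 1144, 2197 and 919 in 2-2, 2-3, 3-1, 3-2 and 3-4, against 1643, 2685, 3302 and 2883 in 1-1, 1-2, 1-4 and 3-3. Cell 2-3 had the highest sum of all 9 and 1-1 the lowest of its class. BTG4 was 48.8, 487, 71.3, 77.2 and 231 FPKM in CDV3-high and 340, 803, 420 and 803 FPKM in CDV3-low cells. Among the CDV3-high cells, only 2-3 lay within the range of the CDV3-low cells for BTG4. WEE2, a kinase that keeps oocytes arrested, was 365 and 377 FPKM in 3-2 and 2-3 but 2.46 to 36.1 FPKM in the other CDV3-high cells, against 65.1 to 455 FPKM in the CDV3-low cells. IGF2BP3, an RNA-binding protein, and ZP4, of the zona pellucida, overlapped widely, with 125.0 to 1067 and 122 to 553 FPKM in CDV3-high and 384 to 604 and 92.6 to 418 FPKM in CDV3-low cells. With 1-1 and 3-2 left out, 3 of the 20 genes were lower and 0 higher, where 5.82% of all genes were higher and 13.7% lower. Within embryo 3 alone 8 were lower, where 26.5% of all genes were.

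Genes of RNA processing were counted as higher only. Of 41 spliceosome and hnRNP genes that passed, 5 were higher (SRSF11, HNRNPH1, SNRPE, PRPF38A and RBM8A) and 0 lower, with a median difference of 1.84, where 3.64% of all genes were higher and 4.53% lower. With 1-1 and 3-2 left out, 11 of 38 were higher (5.82% of all genes), and within embryo 3 alone 22 of 41 were higher and 1 lower (13.6 and 26.5% of all genes). PRPF38A, a subunit of the spliceosome, was 92.1, 85.8, 33.4, 79.4 and 39.3 FPKM in CDV3-high cells and at most 4.21 FPKM in CDV3-low cells. HNRNPH1, an RNA-binding protein of splicing, was 19.7 to 107 FPKM against 0.0665 to 4.81 FPKM. The summed FPKM of this list was 2255, 1731, 2589, 832 and 2634 in CDV3-high and 211, 477, 428 and 344 in CDV3-low cells. These sums did not overlap, with 3-2 the lowest of the CDV3-high cells. HNRNPU, an abundant hnRNP protein gene, was 120 to 579 FPKM against 70.0 to 112 FPKM, which did not overlap but differed by less than 4-fold.

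Few nucleolar genes and translation factors were counted, all of them as higher, where 3.64% of all genes were higher and 4.53% lower. In lists of this size, the absence of lower genes says little. Of 26 nucleolar and ribosome biogenesis genes, 2 were higher (NOL6, a protein of the early small subunit precursor, and NOP58) and 0 lower, with a median difference of 1.95, and their sums were 790 to 1870 FPKM in CDV3-high and 168 to 341 FPKM in CDV3-low cells. With 1-1 and 3-2 left out, 5 of 23 were higher (5.82% of all genes), and within embryo 3 alone 14 of 26 were higher and 1 lower (13.6 and 26.5% of all genes). POLR1D, a subunit shared by RNA polymerases I and III, was 684, 431, 352, 155 and 15.6 FPKM in CDV3-high cells, and 102 FPKM in 3-3 lay within this range. The difference of POLR1D was 3.80 between the classes but -0.08 within embryo 3. Of 25 translation factors, 3 were higher (EIF3J, ETF1 and GSPT1) and 0 lower, with a median of 1.12. With 1-1 and 3-2 left out, 4 were higher and 1 lower, and within embryo 3 alone 8 and 1. GSPT1, the partner of ETF1 in termination, was 27.4 to 127 FPKM against 1.14 to 21.4 FPKM.

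Cytosolic ribosomal proteins had the highest number of genes without overlap among the lists, although the share of transcription factors was larger. Of 40 that passed, 11 were higher (among them RPS3, RPS7, RPS16, RPL7L1 and RPL23A) and 0 lower, with a median difference of 2.12, where 3.64% of all genes were higher. Where at least 1 FPKM was required in every CDV3-high cell, 7 were higher, and 2.45% of all genes. Within embryo 3 alone, 18 were higher and 3 lower, against 13.6 and 26.5% of all genes. RPS16, of the small subunit, was 172, 72.1, 95.1, 166 and 79.8 FPKM in CDV3-high and 0.121, 0.322, 0.328 and 0.20 FPKM in CDV3-low cells. RPS3, also of the small subunit, was 258, 163, 321, 69.5 and 316 FPKM against 0.194, 1.26, 15 and 0.670 FPKM. For RPL23A, of the large subunit, the values were 66.1, 58.7, 34.0, 17.3 and 33.6 FPKM against 0, 4.22, 0.0289 and 0.0440 FPKM. Other members were low also in some CDV3-high cells, such as RPL7L1 with 0.129 FPKM in 3-2 and RPS7 with 0.217 FPKM in 3-4. The sum over the list was 1989, 809, 1776, 474 and 1297 FPKM in 2-2, 2-3, 3-1, 3-2 and 3-4, and 63.2, 121, 206 and 128 FPKM in 1-1, 1-2, 1-4 and 3-3. Ribosomal protein genes have many near-identical pseudogenes, between which the counting may have split reads.

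**Figure D3:**
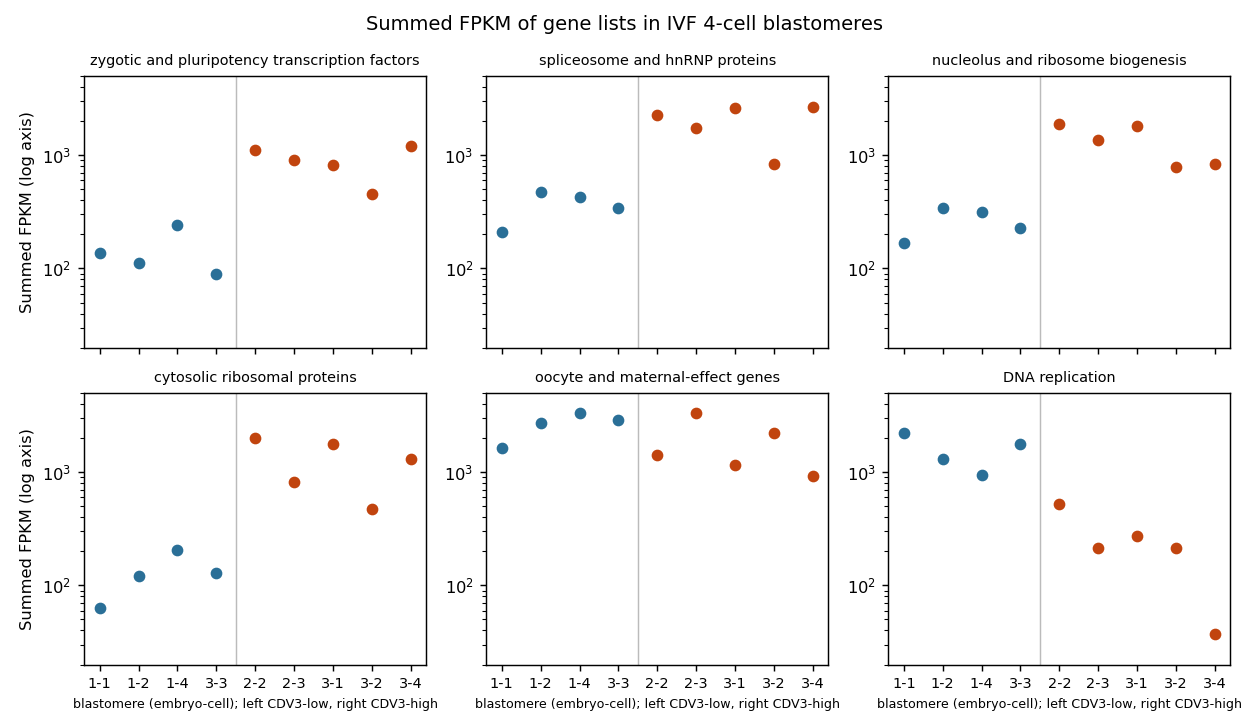
Summed FPKM (log axis) of 6 gene lists in the 9 IVF 4-cell blastomeres, with 1 point per cell, CDV3-low cells in blue on the left and CDV3-high cells in red on the right of each panel. The sums of transcription factors, spliceosome, nucleolus and ribosomal proteins are higher in every CDV3-high cell, also without the most abundant gene of each list. The sums of DNA replication are lower in every CDV3-high cell through PCNA and overlap without it, and the sums of oocyte genes overlap, with 2-3 the highest at 3318 FPKM.

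DNA replication was led by PCNA. Of 14 genes that passed, PCNA was the only 1 counted as lower, where 4.53% of all genes were, and the median difference was -0.41 against -0.36 for all genes. The sums were 37.5 to 520 FPKM in CDV3-high and 938 to 2224 FPKM in CDV3-low cells, but without PCNA they were 32.8 to 471 and 223 to 314 FPKM, which overlap, with 2-2 the highest of the 9 cells. With 1-1 and 3-2 left out, the median of the list was -1.61, with 3 of 12 genes lower, and within embryo 3 it was -1.40, with 1 of 14 higher and 4 lower, against medians of all genes of -0.67 and -0.53. The shares of all genes lower there were 13.7 and 26.5%, so the 4 of 14 were near the share of all genes. POLD3, a subunit of DNA polymerase delta, was 102 FPKM in 2-2 and thus within the CDV3-low range of 19.4 to 133 FPKM. Among 6 genes of DNA methylation, UHRF2 (chromosome 1, 215730219 to 215807674), which binds hemimethylated DNA and histone H3, was 3.77, 172, 2.45, 114 and 16.0 FPKM in CDV3-high and 261, 820, 639 and 953 FPKM in CDV3-low cells. Its difference of -4.75 rested mostly on 2-2, 3-1 and 3-4. DNMT1, the maintenance methyltransferase, was 397, 693, 267, 790 and 132 FPKM against 1116, 874, 1065 and 996 FPKM, so that the classes did not overlap, but the difference of -1.41 was below 4-fold.

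In the deadenylation and mRNA decay list, 3 of 22 genes were higher (CNOT2 and BTG3, a subunit of the CCR4-NOT deadenylase complex and a BTG family member, and YTHDF2, a reader of methylated adenosine) and 0 lower. The median difference was 0.76 and became -0.14 with 1-1 and 3-2 left out. Within embryo 3, 5 were higher and 4 lower, where 13.6 and 26.5% of all genes were. Where at least 1 FPKM was required in every CDV3-high cell, 1 of the 22 was higher and 0 lower, where 2.45 and 3.79% of all genes were. CNOT2 was 0.364 and 0.166 FPKM in 2-2 and 2-3, but 2.65, 16.9 and 19.1 FPKM in 3-1, 3-2 and 3-4, against at most 0.112 FPKM in CDV3-low cells. YTHDF2 was 46.6, 54.5, 47.0 and 67.6 FPKM in 2-2, 2-3, 3-1 and 3-2 but 0.888 FPKM in 3-4, against at most 0.184 FPKM in CDV3-low cells. Of 33 genes of RNA polymerase II and Mediator, 3 were higher (MED8, GTF2F1 and MED13) and 1 lower (MED28), with a median of 0.47, where 3.64 and 4.53% of all genes were counted. With nuclear genes rescaled, 1 of 32 was higher and 1 lower, where 3.22% of all genes were higher and 5.28% lower. Within embryo 3, 3 were higher and 4 lower. MED28 was 60.4 to 144 FPKM in CDV3-low and 0.131 to 13.8 FPKM in CDV3-high cells. Of 14 histones and histone chaperones, H3F3A, encoding histone H3.3, was the only 1 counted, with 38.0 to 155 FPKM in CDV3-high cells and 0.0691 to 30.4 FPKM in CDV3-low cells. The median difference of this list was 0.87 but -0.37 within embryo 3, where 3 were higher and 4 lower.

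No gene was counted in either direction among 12 mitochondrial mRNAs, 10 genes of histone H3 lysine 4 methylation, 23 of M phase and meiotic exit, 19 heat shock proteins and chaperonins, 10 of the p53 pathway and 6 of trophectoderm and compaction. Their median differences were 0.38, -0.23, -0.41, -0.10, -0.14 and -0.25, respectively, against -0.36 for all genes. With 1-1 and 3-2 left out, the median was -1.75 for M phase (1 of 19 lower), -1.18 for trophectoderm (1 of 6 lower), -0.75 for histone H3 lysine 4 methylation, -0.71 for the p53 pathway (1 of 10 lower), 0.46 for heat shock proteins (2 of 19 higher, 1 lower) and 0.51 for mitochondrial mRNAs, against -0.67 for all genes, of which 5.82% were higher and 13.7% lower. Within embryo 3, 1 of 23 genes of M phase was higher and 10 were lower, and of 19 heat shock proteins 4 were higher and 7 lower, where 13.6% of all genes were higher and 26.5% lower. HSPA8, a chaperone, was 3.19 to 104 FPKM in CDV3-high and 0.327 to 20.8 FPKM in CDV3-low cells. Among the genes named in the study, FTL, the light chain of ferritin, was 710, 715, 726, 94.2 and 68.9 FPKM in CDV3-high cells, below the 810 to 2161 FPKM of the CDV3-low cells, with a difference of -2.06.

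Embryo 3 allowed the classes to be compared between sister blastomeres, although only 3-3 represents the CDV3-low class there. Among the 3795 genes, 518 (13.6%) were higher in 3-1, 3-2 and 3-4 than in 3-3 by at least 4-fold with no overlap, and 1005 (26.5%) were lower. The 138 higher genes had a median difference of 3.77 within embryo 3, and for 122 of them it was at least 2. The 172 lower genes had a median of -3.68, and for 147 of them it was -2 or less. SRSF11, TPT1 and RACK1 differed within embryo 3 by 7.04, 6.65 and 7.03, and PSPH, ORMDL1 and PCNA by -5.18, -7.44 and -6.60. Since the cells of embryo 3 took part in choosing these genes, their direction there was given.

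Embryos 1 and 2 on the one hand and embryo 3 on the other share no cells and give separate comparisons. Between embryo 2 (both cells CDV3-high) and embryo 1 (all CDV3-low), 474 genes (12.5%) were higher and 427 (11.3%) lower by the same rule. Of the 474, 191 (40.3%) were higher and 38 (8.02%) lower in the CDV3-high cells of embryo 3. Of the 427, 191 (44.7%) were lower and 10 (2.34%) higher there. The shares of all genes in embryo 3 were 13.6 and 26.5%. Seen from embryo 3, the shared genes were 36.9% of its 518 higher and 19.0% of its 1005 lower genes. For these 2 percentages, the matching shares of all genes are those of embryo 2 against embryo 1, 12.5 and 11.3%. Since FPKM of at least 1 in 3 of the 9 cells was required, a gene high in the 2 cells of embryo 2 alone could pass only through embryo 3. With the filter on the cells of embryos 1 and 2 alone (at least 1 FPKM in 2 of 5), added after seeing the data, 168 of 495 (33.9%) were higher and 191 of 449 (42.5%) lower in embryo 3 as well. Of all 3837 genes of that filter, 10.9% were higher and 24.6% lower in embryo 3, so the shares remained above those of all genes. The embryos and the classes cannot be told apart in embryos 1 and 2 alone.

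**Figure D4:**
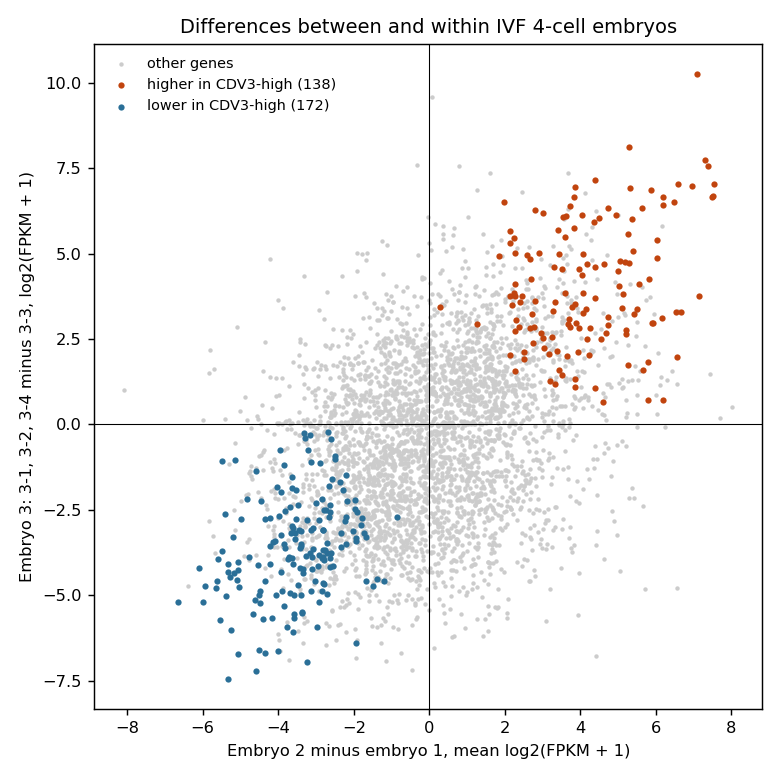
Difference of mean log2(FPKM + 1) between embryo 2 and embryo 1 (x axis) and between 3-1, 3-2 and 3-4 and their sister 3-3 (y axis), with 1 point per gene for 3795 genes. The 138 higher (red) and 172 lower genes (blue) lie in opposite corners by choice, since their classes do not overlap (medians 3.97 and -3.44 between the classes), while the grey points of the other genes lie on every side of 0.

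In PA 4-cell embryo 3, CDV3 was 5435 and 6430 FPKM in 3-1 and 3-3 and 6.29 FPKM in 3-4, so the same cut was tried in an embryo without sperm. This comparison was added after the values had been seen. Of all genes, 414 (10.9%) were higher and 566 (14.9%) lower in 3-1 and 3-3 than in 3-4. Of the 138 higher genes, 26 (18.8%) were higher and 18 (13.0%) lower, and of the 172 lower genes, 32 (18.6%) were lower and 14 (8.14%) higher. The separation of the IVF blastomeres was seen in this PA embryo for few of the genes. Many genes could not show it there, since the median of the lower genes was only 0.154 FPKM in 3-4. The median of the higher genes was only 0.157 FPKM in 3-3. These counts therefore cannot decide whether the separation recurs in PA embryos.

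To compare the genes with the passage of stages in embryos that did not define the classes, PA 4-cell embryos were tested against PA 2-cell embryos, and the IVF 8-cell embryo against IVF 2-cell embryos. The tests used limma on log2(mean FPKM of an embryo + 1) of 7533 genes, without any IVF 4-cell blastomere. The IVF 8-cell stage was 1 embryo. It was assumed to vary like the other groups, whose spread stood in for its own, so variation between 8-cell embryos was not measured, and what is particular to this embryo cannot be told apart from the stage in any of the IVF calls, standard errors and p-values below. The PA 4-cell columns 1-4 and 2-1 nearly repeated those of PA 2-cell blastomeres 1-2 and 2-1 (Pearson's r of 0.999 in both cases, at most 0.908 for other pairs) and were left out. PA 4-cell embryo 1 then rested on blastomere 1-3 alone, but counted as much as embryos with more cells. From PA 2-cell to 4-cell, 144 genes (1.91%) were called higher and 713 (9.47%) lower, and from IVF 2-cell to 8-cell 611 (8.11%) and 742 (9.85%), at a limma adjusted p below 0.05 and at least 2-fold. A fit of only the 2 PA groups gave 13 and 16 genes. The fold change of a gene is the same in both fits, but the filter on fewer cells kept another set of genes. The median log2 fold change of all genes moved with this set, from -0.54 to -1.08. Both the spread and the genes tested therefore changed, and the part of each in the lower counts was not tested.

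Among 3738 genes tested both here and in the 9 blastomeres, 3.16% were called higher and 15.2% lower from PA 2-cell to 4-cell. Of the 132 higher genes tested, 30 (22.7%) were called higher and 1 (RPS3) lower, with a median log2 fold change of 1.00 and 108 above 0. Of the 172 lower genes, 61 (35.5%) were called lower and 0 higher, with a median of -2.18 and 164 below 0, against -0.86 for the 3738 genes. With PA 4-cell-1-4 and 2-1 kept in, the calls in these groups were 18 and 4, and with median-ratio scaling 26 of the lower genes were called lower. From IVF 2-cell to 8-cell, 6.85% of the 3738 genes were called higher and 17.2% lower. Here 65 of the 132 (49.2%) were called higher and 0 lower, with a median log2 fold change of 3.43, and 72 of the 172 (41.9%) lower and 0 higher, with a median of -3.05. Scaling by median ratios raised the share of higher calls from 16.8 to 35.0% of all calls for PA and from 45.2 to 71.9% for IVF, and the median of all genes from -0.54 to -0.23 and from -0.75 to -0.39.

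**Figure D5:**
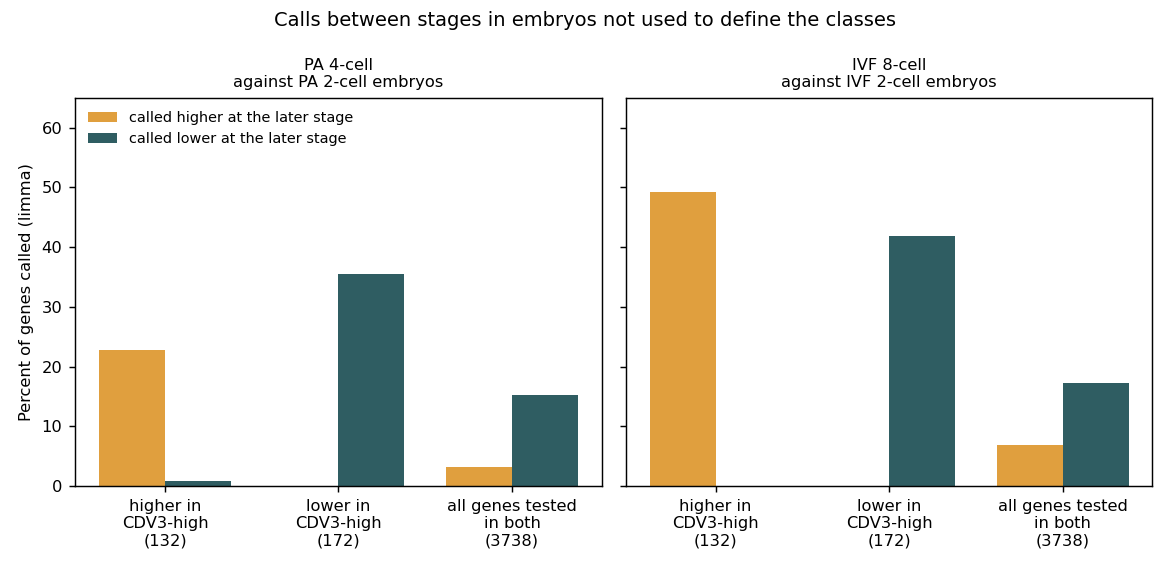
Percent of genes called higher (yellow) or lower (dark) at the later stage by limma, for PA 4-cell against 2-cell (left) and IVF 8-cell against 2-cell embryos (right), in the 132 higher genes, the 172 lower genes and all 3738 genes tested in both. In both comparisons the calls of the higher genes are nearly all upward (22.7 and 49.2%) and those of the lower genes all downward (35.5 and 41.9%).

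Single genes passed in 1 or both of these comparisons. TPT1 rose by 3.71 on the log2 scale (standard error 0.80, limma adjusted p = 0.00757) from PA 2-cell to 4-cell, and by 7.69 (1.13, limma adjusted p = 0.000364) from IVF 2-cell to 8-cell. RPS16 rose by 5.45 (0.72, limma adjusted p = 0.000269) and 8.91 (1.02, limma adjusted p = 4.22e-05), respectively. RACK1 rose by 9.62 (1.09, limma adjusted p = 3.84e-05) from IVF 2-cell to 8-cell, and for PA it was 2.19 (0.77, limma adjusted p = 0.0840, and 0.0135 to 0.277 over the alternatives). NANOG rose by 5.64 (0.61, limma adjusted p = 6.70e-05) in PA, where it was 4.71 to 264 FPKM in the 7 4-cell blastomeres used, and by 3.53 (0.86, limma adjusted p = 0.0120) in IVF 8-cell, where a single cell held it (32.6 FPKM). KLF17 passed in both with 3.64 and 5.27 (limma adjusted p = 0.0309 and 0.0199), but was 2.15, 116 and 0 FPKM in the 3 IVF 8-cell blastomeres. NR5A2, an orphan nuclear receptor, rose by 4.50 in IVF 8-cell (0.37, limma adjusted p = 2.10e-06), but was 0 to 0.417 FPKM in PA 4-cell blastomeres. In IVF 8-cell blastomeres NR5A2 was 1.36, 66.4 and 0.552 FPKM, so that a single cell carried the mean of the embryo. SRSF11, with the largest difference between the classes among named genes, did not pass (1.25 and 3.95, limma adjusted p = 0.539 and 0.113), although for IVF the lowest limma adjusted p over the alternatives was 0.0321. Over the alternatives, the highest limma adjusted p for PA was 0.0982 for TPT1, 0.0530 for RPS16 and 0.157 for KLF17, and for IVF 0.164 for NANOG and 0.0987 for KLF17, so these calls were lost under at least 1 setting.

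Of the lower genes, PCNA fell by 2.44 from PA 2-cell to 4-cell (standard error 0.58, limma adjusted p = 0.0144) and by 4.04 from IVF 2-cell to 8-cell (0.83, limma adjusted p = 0.00412). For SUV39H2, the changes were -3.39 in PA and -5.56 in IVF, with limma adjusted p = 0.00586 and 0.00161, and for RNF114 -3.60 and -6.26, with limma adjusted p = 0.0272 and 0.00624. PSPH and ORMDL1 fell in IVF, with -6.46 and -7.40 (limma adjusted p = 0.0221 and 0.0150, at most 0.0491 and 0.0528 over the alternatives), while for PA the values were -3.98 and -4.21 (limma adjusted p = 0.0561 and 0.0566). Over the alternatives, the limma adjusted p for PA lay between 5.15e-05 and 0.379 for PSPH and between 6.86e-06 and 0.258 for ORMDL1, so that some settings passed. UHRF2 fell by 3.67 in IVF 8-cell (0.53, limma adjusted p = 0.000338) and was -0.55 in PA (limma adjusted p = 0.398). For PA, the limma adjusted p rose under at least 1 alternative to 0.277 for PCNA, 0.123 for SUV39H2 and 0.277 for RNF114.

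By lists, ribosomal proteins had the highest count from IVF 2-cell to 8-cell but not from PA 2-cell to 4-cell. Of 59 cytosolic ribosomal proteins tested, 47 were called higher and 0 lower from IVF 2-cell to 8-cell, and 3 higher and 2 lower (RPL5 and RPS3) from PA 2-cell to 4-cell. Of 50 spliceosome genes, 10 were called higher and 0 lower in IVF, and 3 and 2 in PA. Of 41 nucleolar genes, 5 were called higher and 0 lower in IVF, and 1 (FBL) and 4 (GAR1, NPM1, RRN3 and NIP7) in PA. Transcription factors gave 7 higher and 2 lower of 21 in IVF, and 3 and 1 (OTX2) in PA. Translation factors gave 14 higher and 0 lower of 38 in IVF, and 1 and 2 in PA. Oocyte genes gave 1 higher (DDX4) and 13 lower of 26 in IVF, and 0 and 7 in PA, which included BTG4 and MOS. Mitochondrial mRNAs gave 1 higher and 0 lower of 13 in IVF, and 6 and 0 in PA. Heat shock proteins gave 2 higher and 0 lower of 25 in IVF, and 2 and 5 in PA. Of all genes tested, 8.11% were called higher and 9.85% lower in IVF, and 1.91 and 9.47% in PA. Whether the 2 comparisons differ was not tested, and they differ in method and in the later stage.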

How the data were processed

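The authors reverse transcribed and amplified RNA of single cells, with or without polyA tails, aligned them by HISAT2 (build Sscrofa11.1), used StringTie for assembly and HTSeq for counting, and deposited FPKM (fragments scaled by gene length and library size) of 15351 genes in 42 cells. The extraction protocol in the labels describes another procedure (total RNA of oocytes), and the paper's was followed. Versions, annotation release and strandedness are not given in the sources used here. Reads on genes were recovered as whole multiples of the smallest FPKM step for 14640 genes (99.6% of those above 0, tolerance 0.01 read). Reads amplified by PCR are not independent molecules, so precision rests on the spread between cells or embryos.

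Blastomeres were classed by CDV3 (threshold 1000 FPKM). Classes were compared on log2(FPKM + 1) over genes with FPKM of at least 1 in 3 of 9 cells, without a test. Embryo means of the other groups (without 2 near-repeat PA columns) were tested by limma 3.58.1 in R 4.3.3 with a mean-variance trend, all 7 groups sharing 1 spread and embryos as replicates, at Benjamini-Hochberg adjusted p under 0.05 and at least 2-fold. Members and lists were chosen with earlier results of these data known. Named genes are the 15 with a symbol and the largest difference each way, list members counted, up to 4 abundant others per list, and genes the study names. Alternatives changed pseudocount, filter, scaling, threshold and cells. Sequence windows came from the RefSeq genome of the same build. Python 3.11.15, pandas 2.3.3, numpy 2.4.6, scipy 1.17.1, pysam 0.24.0 and matplotlib 3.10.9 were used. The values of 1 list member are not reported here.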

Additional observations from a re-analysis of the deposited data

Results flagged for a closer look

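Among 136 groups of values of named genes and cell measures, 23 held 1 blastomere far from the others of its class on the log2 scale, where the critical value used is set for about 1 in 20 groups of normal values. Many of these values are near 0 FPKM, and the rate for such values was not tested. In CDV3-high cells these were, in FPKM, PSPH in 2-2 (1.01), TIMM8B in 3-4 (1.27), PFN2 in 3-1 (8.92), RNFT1 in 2-2 (10.7) and YTHDF2 in 3-4 (0.888). Cell 3-2 stood apart for SUV39H2 (3.36), YES1 (6.57), MPZL1 (18.1) and RNF114 (10.5), in each case toward the CDV3-low cells. In CDV3-low cells, 1-2 stood apart for SRSF11 (0.487), ZRANB2 (3.99), NOP58 (0.912), ARGLU1 (2.10), RPS7 (0.00649), RPL23A (4.22) and NANOG (0.0399). Cell 1-4 did so for ETF1 (5.4), GTF2F1 (4.42), H3F3A (30.4), RBM8A (0.0654) and RPS15A (1.02), 1-1 for CNOT2 (0.112) and 3-3 for SNRPE (6.75).

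Within PA 4-cell embryo 3, 10 of the 30 genes with the largest differences went the opposite way, and the difference from the IVF blastomeres was not tested. Of the genes higher in CDV3-high IVF cells, the difference of mean log2 in this PA embryo was -2.23 for RACK1, -0.183 for NDUFAF4, -1.29 for VCP and -5.30 for ILF2. Of the lower genes it was 3.79 for SMCO4, 0.0778 for PFN2, 1.94 for YES1, 0.0223 for MPZL1, 0.427 for RNFT1 and 0.674 for RNF114. In PA 4-cell blastomeres, NDUFAF4 was at most 0.135 and PFN2 at most 0.859 FPKM, so their signs and that of MPZL1 carry little.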

How the results depend on the processing

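Between the classes of IVF 4-cell blastomeres, the counts of 138 higher and 172 lower genes became 90 and 93 with a pseudocount of 5 and ranged from 135 to 211 and from 160 to 305 when each blastomere was left out in turn (211 without 1-4, 305 without 1-1, 260 lower without 3-2). Leaving out 1-1 and 3-2 together, chosen after seeing the data, gave 444 lower genes. Median-ratio scaling gave 147 and 149 and rescaling of nuclear genes 121 and 198. The comparison within embryo 3 alone, used as a replicate block, gave 518 and 1005. Genes shared between embryos 2 and 1 and embryo 3 (191 each way) were 92 and 90 with a pseudocount of 5, and 167 to 302 higher (302 without 2-3) and 185 to 323 lower (323 without 1-1, 292 without 2-2) when leaving out blastomeres; without 3-3 there is no such comparison.

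For PA 4-cell against 2-cell embryos (144 higher, 713 lower), median-ratio scaling gave 235 and 436, a fit of only the 2 groups 13 and 16, and the fit with PA 4-cell-1-4 and 2-1 61 and 30. Lower genes were 466 without PA 2-cell-1-2 and 2-1 as well and 440 with a pseudocount of 5. Leaving out 1 embryo gave 101 to 272 higher (272 without PA 4-cell embryo 1) and 600 to 900 lower genes. For IVF 8-cell against 2-cell embryos (611 and 742), median-ratio scaling gave 1146 and 447, a pseudocount of 0.1 388 higher genes, and leaving out 1 embryo 515 to 523 and 517 to 635. With the embryo number as a replicate block, PA gave 99 and 511 and IVF 411 and 335 genes. Numbers were not taken to pair embryos, since same-numbered embryos deviated with correlations of only -0.0230 to 0.0808.

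Of the higher genes, 18 in place of 30 were called in PA with PA 4-cell-1-4 and 2-1. Of the lower genes, those called in PA (61) became 29 with a pseudocount of 5, 26 with median-ratio scaling, 4 with the 2 PA cells and 121 without blastomeres 1-1 and 3-2, and those called in IVF (72) became 47 with median-ratio scaling, 181 without 1-1 and 3-2, and 74 to 125 without single blastomeres (125 without 1-1, 113 without 3-2). The difference in the median number of genes detected, CDV3-high minus CDV3-low, was 211 above 0 FPKM but -803 for genes of at least 1 FPKM. The difference in likeness to the 2-cell stage (-0.197) became -0.280 over genes of at least 5 FPKM and -0.339 by Pearson's r, and that to the 8-cell stage (0.197) became 0.259 over genes of at least 5 FPKM. Genes counted between the classes cannot change direction when cells are left out or within embryo 3, since they were chosen for values without overlap. Of 94 named or listed genes that were not counted, 33 changed direction under at least 1 alternative (22 within embryo 3), such as POLR1D (3.80 to -0.08) and IGF2BP3 (0.06 to -0.24). With 3 or fewer embryos in a group, and 1 at the IVF 8-cell stage, the number of embryos limits the precision.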
